A study of Homo sapiens with 39 samples.

Results

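RNA levels after 6 h of GSK-J4 were compared with those after 6 h of its vehicle DMSO in JJN3, a human multiple myeloma line. Columns of the deposited count table were assigned by their running sample number, and the members are all genes that passed a filter on low counts, 14460 of 57773 identifiers listed. The filter ran on all 39 libraries of the series, so a gene could pass through a group other than these. Each group held 3 libraries. Of the other groups, ZnSO4 at 6 h and the GSK-J4 and DMSO groups of 3 and 24 h serve here for contrast. JJN3 cells grew in RPMI with 10% FCS in every group, Trizol served for extraction and the NEBNext Ultra RNA kit for library preparation, per the labels. The sources used here do not give doses, the counting tool or its strand setting. JJN3 is a single line, and the labels do not say whether the 3 libraries of a group came from separate cultures, so p-values measure only the spread between libraries, which may be technical.

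GSK-J4 is a cell-permeable ester of an inhibitor of the KDM6 histone demethylases, which remove methyl groups from lysine 27 of histone H3, and zinc sulphate supplies zinc ions. Metallothioneins are small cysteine-rich proteins that bind zinc and copper, and their genes are switched on by the zinc-sensing factor MTF1 through metal response elements. The integrated stress response begins when a kinase phosphorylates the translation factor eIF2alpha. General translation then slows while the mRNA of the transcription factor ATF4 is translated more, and ATF4 with C/EBP partners activates genes of amino acid synthesis, amino acid uptake and tRNA charging. Myeloma cells are malignant plasma cells that secrete large amounts of protein, and this makes them lean heavily on protein folding and degradation.

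Promoters of some genes discussed below are shown first. They were picked because they carry the letters by which MTF1 and ATF4 are known to bind, so they do not stand for the other genes. They are RefSeq sequences of build GRCh38.p14, while the authors aligned to hg19, and 9981 of the 14460 genes tested had an entry matched by symbol. The search covered the 250 bases before 1 gene start per symbol, on both strands. Other starts of the same gene were not searched. Capitals mark TGCNCNC, the core of the metal response element, in the 3 sequences of 250 bases that follow. MT2A lies at chr16:56608334-56608583 on the plus strand, MT1X at chr16:56682220-56682469 on the plus strand and SLC30A1 at chr1:211579162-211579411 on the minus strand.
MT2A: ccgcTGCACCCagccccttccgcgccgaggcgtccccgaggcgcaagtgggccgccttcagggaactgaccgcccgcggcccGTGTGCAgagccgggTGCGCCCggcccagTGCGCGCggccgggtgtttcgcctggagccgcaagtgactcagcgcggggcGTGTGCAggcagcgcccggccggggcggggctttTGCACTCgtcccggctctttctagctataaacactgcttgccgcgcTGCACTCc
MT1X: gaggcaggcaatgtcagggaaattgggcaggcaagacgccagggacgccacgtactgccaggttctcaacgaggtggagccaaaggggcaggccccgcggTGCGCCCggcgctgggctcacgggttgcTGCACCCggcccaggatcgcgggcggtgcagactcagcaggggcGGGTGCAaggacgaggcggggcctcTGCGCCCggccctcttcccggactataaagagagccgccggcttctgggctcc
SLC30A1: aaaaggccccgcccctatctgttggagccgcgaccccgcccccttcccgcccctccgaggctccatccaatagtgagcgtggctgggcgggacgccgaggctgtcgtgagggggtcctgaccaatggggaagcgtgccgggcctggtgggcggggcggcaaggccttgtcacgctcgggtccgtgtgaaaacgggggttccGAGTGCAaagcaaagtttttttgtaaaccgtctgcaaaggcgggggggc
TGCNCNC occurred 7 times in the MT2A promoter, 4 times in that of MT1X and 1 time in that of SLC30A1. These few letters are common: 56.4% of the 9981 promoters held at least 1 match and 22.8% held 2 or more, against 4 of 4 metallothionein promoters with 2 or more. At least 1 match was found in 54.5% of the 1057 genes called higher after GSK-J4 and 50.6% of the 156 at least 2-fold higher. It was found in 58.2% of the 1197 called lower and 56.4% of the 7727 not called, so genes called higher held no larger share.

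The next 5 stretches of 80 bases carry TGATGNAA in capitals, the core of the element bound by ATF4 with a C/EBP partner, on either strand. CHAC1 is shown at chr15:40953226-40953305 on the plus strand, ATF3 at chr1:212565180-212565259 on the plus strand, BCAT1 at chr12:24949106-24949185 on the minus strand, ASNS at chr7:97872433-97872512 on the minus strand and AARS1 at chr16:70289650-70289729 on the minus strand.
CHAC1: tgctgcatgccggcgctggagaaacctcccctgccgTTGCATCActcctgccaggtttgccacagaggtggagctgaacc
ATF3: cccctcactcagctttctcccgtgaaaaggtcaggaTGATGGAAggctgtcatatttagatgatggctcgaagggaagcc
BCAT1: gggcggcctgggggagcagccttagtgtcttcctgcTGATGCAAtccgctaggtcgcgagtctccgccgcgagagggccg
ASNS: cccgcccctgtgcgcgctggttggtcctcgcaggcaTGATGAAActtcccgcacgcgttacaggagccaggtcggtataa
AARS1: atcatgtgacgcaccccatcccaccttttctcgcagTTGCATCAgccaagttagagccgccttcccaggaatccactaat
The match starts 209 bases before the gene start in CHAC1 and 48 bases before it in BCAT1. TGATGNAA was found in 131 of 9981 promoters (1.31%). Among genes at least 2-fold higher after GSK-J4 it was found in 11 of 156 (7.05%), among all called higher in 30 of 1057 (2.84%), among those called lower in 14 of 1197 (1.17%) and among those not called in 87 of 7727 (1.13%). The 5 lists linked to ATF4 (transcription factors, amino acid synthesis, amino acid transport, cytosolic tRNA synthetases and stress effectors) held it in 9 of 70 promoters (12.9%). These were 4 of 14 for amino acid synthesis, 2 of 13 for the transcription factors, 2 of 16 for the synthetases, 1 of 13 for the effectors and 0 of 14 for transport. A match is a description of the letters and not a bound site. The lists were drawn up with earlier results of these data known, so their shares are descriptions too. No printed sequence held 2 overlapping motifs.

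Library totals of the 6 libraries ranged from 4450090 to 6662502 counts (median 5914198), and a floor of 3 counts per library equalled 0.429 to 0.636 CPM, counts scaled to the library total. Levels below are CPM adjusted by TMM factors, given in the order of replicates 1, 2 and 3. Replicates were numbered here by running sample number within each group, since the labels give no replicate numbers. The same number in 2 groups therefore does not mark a pair. Replicate 3 of DMSO stood apart from the other DMSO libraries: chi-squared per gene was 3.05 against replicate 2, while replicates 1 and 2 differed by 1.457 and the GSK-J4 pairs by 1.205 to 1.513. Of 8320 genes compared, 28 were over 1.5-fold lower in it and 9 over 1.5-fold higher, with CHAC1, DNAJB1, DDIT4 and HSPA8 among the lower ones. For GSK-J4 against DMSO at 6 h, values without it are given for these genes and for the other named ones over 1.5-fold apart in it. They are also given where it ended a call or moved a count by over 1.5 times. As a check of identity, 12 of 12 plasma cell markers passed the filter, SDC1 (CD138) at 242 ± 7.02 CPM (SD, n = 3) in DMSO. Of 28 markers of other cell types with an identifier, 20 did not pass. The 8 that did were EPCAM, KRT8, KRT18, PAX5, MS4A1, HBB, COL1A1 and COL1A2. Together they summed to 69.24, 70.24 and 76.59 CPM in DMSO and 60.96, 69.06 and 74.78 CPM in GSK-J4. Between the treatments 0 of the 8 were called (1 without replicate 3 of DMSO), which does not bear on identity.

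Between GSK-J4 and DMSO, 2947 of 14460 genes were called at an adjusted p under 0.05 in edgeR's quasi-likelihood test, 20.4% of those tested. Of these, 1422 were higher (9.83%) and 1525 lower (10.5%), and these shares are the background against which each group of genes is set below. The scale matters for this balance: with library totals alone, 1791 were higher and 1117 lower (61.6% higher against 48.3%). Rises were larger than falls. At least 1.5-fold, 511 genes were higher and 179 lower, and at least 2-fold, 240 were higher and 43 lower. Most changes were small, with a median size of 0.36 on the log2 scale and 2257 of the calls (76.6%) below 1.5-fold. The 3 GSK-J4 libraries did not overlap with the 3 DMSO libraries in 35.5% of genes, 17.4% higher and 18.1% lower.

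**Figure D1:**
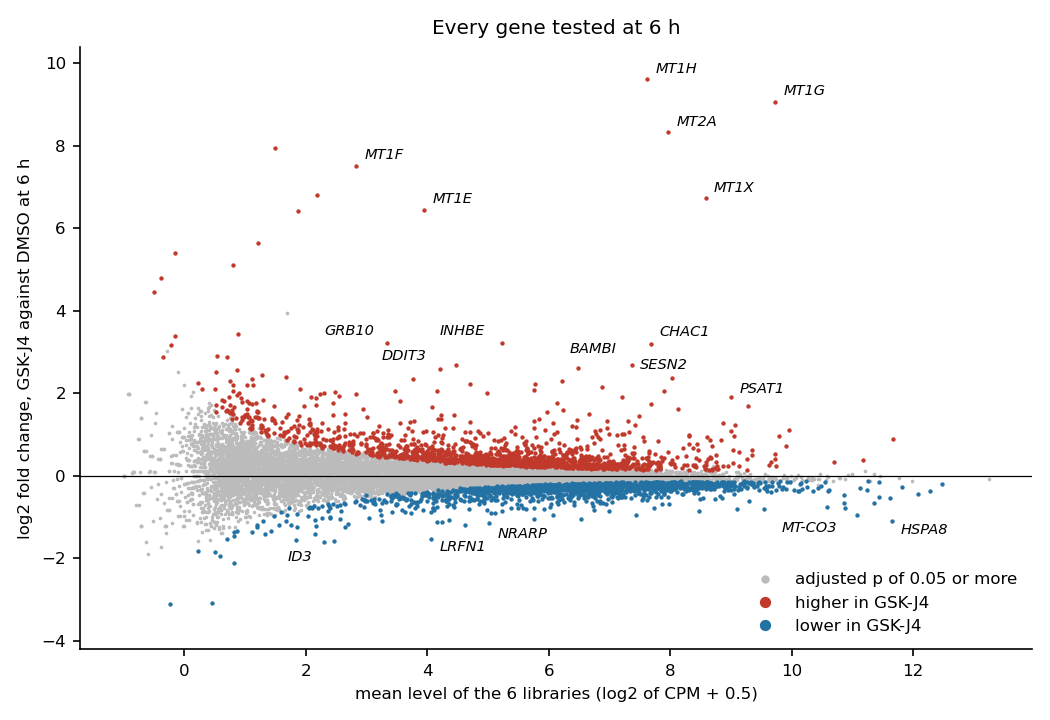
Every gene tested is a point, with its mean level over the 6 libraries (log2 of CPM + 0.5) on the x axis and its log2 fold change of GSK-J4 against DMSO on the y axis. The metallothioneins stand above all other labelled genes, and INHBE, GRB10, CHAC1 (3.19) and SESN2 (2.69) follow in this order. Among labelled falls LRFN1 is at −1.52 and HSPA8 at −1.10.

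The genes of the compound's own targets were not called. KDM6A, a demethylase of lysine 27, stood at 33.2, 28.6 and 31.6 CPM in DMSO and 37.4, 37.4 and 35.6 CPM in GSK-J4 (log2 fold change 0.24 ± 0.10, edgeR adjusted p = 0.092; it passed with library totals as the scale). For its relative KDM6B the levels were 17.5, 14.3 and 17.9 and 16.9, 20.7 and 22.2 CPM, which overlap (adjusted p = 0.22). Of 11 KDM6 and PRC2 genes tested, EZH2 and EZH1, the catalytic subunits that write the mark, rose with log2 fold changes of 0.29 ± 0.06 and 0.31 ± 0.08 (adjusted p = 8.8e-05 and 0.0027). RBBP7, also on this list, was called lower and 8 members were not called. Falls numbered 0 without replicate 2 of DMSO. Of 16 other genes with a JmjC domain, the fold of these demethylases, 6 rose and 2 fell, and 1 fell without replicate 1 or 3 of DMSO, without replicate 1 of GSK-J4, with library totals or with no filter. KDM4A, which acts on lysines 9 and 36 of H3, went from 34.2, 36.3 and 30.1 CPM to 76.6, 71.3 and 74.99 CPM, with the smallest p of the list (log2 fold change 1.15 ± 0.09, adjusted p = 1.4e-16). Its rise was 0.35 at 3 h and 0.29 at 24 h on the log2 scale, and the effect at 6 h differed from both (adjusted p = 1.4e-05 and 2.8e-05). KDM7A rose further from a low level (log2 fold change 1.49 ± 0.26, adjusted p = 1e-05), and KDM2B fell by 0.37 (adjusted p = 0.0021).

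Metallothioneins had the largest median of all lists, higher in 8 of 8 members tested with a median log2 fold change of 7.73, or 7.13 with the 2 members at 0 in DMSO set to their bound. With only the 2 groups compared in the fit, 7 members were tested and 7 rose. A member at 0 in DMSO passes the count filter only through groups where it is high. The count of 8 of 8 is therefore partly set by the filter. MT1X (ENSG00000187193) stood at 6.91, 7.92 and 6.49 CPM in DMSO and at 761, 756 and 762 CPM in GSK-J4 (log2 fold change 6.74 ± 0.13, adjusted p = 5e-48). MT2A (ENSG00000125148), the most widely expressed member in human tissues, stood at 1.03, 1.55 and 2.06 CPM and at 514, 482 and 500.2 CPM. The GSK-J4 libraries lie close to each other and far above every DMSO library. MT1G had 29622 counts in the 3 GSK-J4 libraries and 59 in those of DMSO, which gives a scaled ratio of 543 (421 to 713 by counting error at 95%), and its log2 fold change was 9.07 ± 0.25, or 10.11 without replicate 3 of DMSO. For MT1H the sums were 6864 and 9 (ratio 824, interval 434 to 1800). Members at or near 0 in DMSO give only bounds or wide ratios: MT1M, with 83 counts against 0, was at least 29.9-fold higher from a floor of 3 counts over the group (lower limit 23.8 by counting error alone), and MT1F, with 233 against 1, had a ratio of 252 (interval 44.8 to 9990). MT1B, with 9 counts against 0, was at least 3.24-fold higher from the same floor over the group (lower limit 2.13 by counting error alone), and its call was lost without replicate 2 of GSK-J4. MT1A had 1 count against 0, and MT3 and MT4 had none in either group. The copies resemble one another, so how reads divide between them is uncertain, and this holds for the related copy MT1HL1 as well (0, 0 and 0.158 CPM against 7.30, 8.27 and 8.69 CPM).

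Among zinc transporters the change centred on SLC30A1, the exporter of the plasma membrane and, like metallothioneins, a target of MTF1. SLC30A1 (ENSG00000170385) went from 58.8, 53.2 and 72.95 CPM in DMSO to 228, 230.3 and 239.6 CPM (log2 fold change 1.91 ± 0.08, adjusted p = 2.1e-30). SLC30A2, an exporter into vesicles, had no count in the DMSO libraries and 0.859, 0.689 and 0.847 CPM in GSK-J4, near the floor of 3 counts. The other 5 exporters tested did not pass, though with library totals as the scale 4 exporters in all were higher. With only the 2 groups compared in the fit, 6 exporters were tested instead of 7, with 1 higher and 1 lower. Importers of the SLC39 family moved both ways, with 2 of 11 higher and 3 lower, and the rises numbered 0 without replicate 1 of DMSO and 1 without replicate 1 or 2 of GSK-J4. SLC39A10 fell from 26.02, 32.02 and 24.4 CPM to 19.3, 20.3 and 20.3 CPM (log2 fold change −0.46 ± 0.11, adjusted p = 0.0013), and SLC39A6 fell as well (log2 fold change −0.27 ± 0.05, adjusted p = 7.5e-05).

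Transcription factors of the ATF4 pathway rose in 10 of 16 and fell in 3, with a median log2 fold change of 0.53 against 0.011 over all genes. ATF4 mRNA itself changed modestly, from 444, 409 and 382 CPM in DMSO to 636, 636 and 628 CPM in GSK-J4 (log2 fold change 0.62 ± 0.05, adjusted p = 1.6e-15). Of the genes it is known to activate, DDIT3, ATF3 and TRIB3 had larger fold changes, and others given below had smaller ones, SHMT2 among them. DDIT3 (ENSG00000175197), encoding the stress factor CHOP, stood at 4.12, 5.85 and 5.38 CPM and 29.3, 32.4 and 31.4 CPM (log2 fold change 2.60 ± 0.15, adjusted p = 3.5e-23). ATF3, a repressor induced by many stresses, stood at 10.3, 10.3 and 6.17 CPM and 38.8, 40.8 and 46.6 CPM (log2 fold change 2.22 ± 0.14, adjusted p = 4.7e-21, or 2.01 without replicate 3 of DMSO). TRIB3, a pseudokinase that dampens ATF4, went from 89.4, 95.2 and 84.3 CPM to 218, 230.4 and 233 CPM (log2 fold change 1.34 ± 0.06). In all 3 the groups were well apart. The partners CEBPB and CEBPG rose with log2 fold changes of 1.54 ± 0.10 and 0.99 ± 0.06, and JDP2 with 1.67 ± 0.15 (adjusted p = 8.7e-20, 1.4e-20 and 3.6e-14). CEBPD, MAFK and ATF5 went the other way, with log2 fold changes of −0.65 ± 0.15, −0.68 ± 0.13 and −0.35 ± 0.09 (adjusted p = 0.0012, 3.2e-05 and 0.0021). ATF5 is another factor whose translation the stress response favours.

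Both regulatory subunits of the phosphatase that reverses eIF2alpha phosphorylation rose, and 3 of the 4 kinases were not called. PPP1R15A (GADD34), the stress-induced subunit, went from 27.2, 23.6 and 28.2 CPM to 57.8, 59.9 and 62.7 CPM (log2 fold change 1.18 ± 0.13, adjusted p = 1.3e-10), and PPP1R15B, the constitutive one, rose with 0.43 ± 0.07 (adjusted p = 1.4e-06). EIF2AK1, EIF2AK2 and EIF2AK3 had adjusted p of 0.72, 0.24 and 0.63. EIF2AK4 (GCN2), the sensor of uncharged tRNA, was 1 of 4 members called lower, but its call was lost without replicate 2 or 3 of DMSO or 1 or 2 of GSK-J4, and the count was 1 without replicate 3 of DMSO or with library totals and 2 without replicate 1 of GSK-J4. EIF2S1, which encodes eIF2alpha, fell with a log2 fold change of −0.33 ± 0.06 (adjusted p = 1.7e-05).

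Enzymes that make amino acids and feed the folate cycle rose in 16 of 21, with a median log2 fold change of 0.85. All 3 enzymes of the serine branch rose. PHGDH, its first enzyme, went from 344, 341 and 298 CPM in DMSO to 714, 684 and 686 CPM in GSK-J4, PSAT1 from 219, 223 and 201 CPM to 854, 773 and 802 CPM, and PSPH, the last step, from 41.8, 37.2 and 32.1 CPM to 114, 109.9 and 112 CPM. Their log2 fold changes were 1.08 ± 0.06, 1.92 ± 0.05 and 1.60 ± 0.09 (adjusted p = 1.8e-25, 1.3e-38 and 2.1e-24). Downstream of serine, the mitochondrial folate enzymes MTHFD2 and ALDH1L2 rose with 0.97 ± 0.05 and 1.16 ± 0.07, and SHMT2 with 0.38 ± 0.05 (adjusted p = 1.2e-07). Of their cytosolic counterparts, SHMT1 had a log2 fold change of 0.07 (adjusted p = 0.69) and MTHFD1 one of −0.14, whose adjusted p of 0.047 was lost without any 1 of 5 libraries. Transsulfuration, which turns homocysteine into cysteine, moved with CTH (means of 20.4 ± 2.81 CPM in DMSO and 86.96 ± 4.62 CPM in GSK-J4, SD, n = 3, log2 fold change 2.08 ± 0.10, adjusted p = 1.4e-25) and CBS (0.62 ± 0.06, adjusted p = 2.5e-14). ASNS, which makes asparagine, rose with 1.45 ± 0.07, and PCK2, the mitochondrial PEP carboxykinase, with 1.78 ± 0.08 (adjusted p = 3.5e-26 and 3e-27). BCAT1, the cytosolic transaminase of branched-chain amino acids, went from 5.14, 4.30 and 5.54 CPM to 17.03, 18.9 and 16.7 CPM (log2 fold change 1.81 ± 0.18, adjusted p = 1.5e-12). Of the genes of proline synthesis, PYCR1 rose with 0.47 ± 0.06 (adjusted p = 6.9e-09), while ALDH18A1, the step before it, had −0.19 with a call lost without replicate 2 or 3 of DMSO or 1 or 3 of GSK-J4.

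Transporters of amino acids at the plasma membrane rose in 10 of 15 and fell in 2. SLC6A9, a glycine carrier, went from 45.6, 39.2 and 43.8 CPM in DMSO to 199.5, 184 and 189 CPM (log2 fold change 2.15 ± 0.07, adjusted p = 3.1e-34). SLC7A11, which imports cystine for glutathione synthesis, stood at 19.9, 17.04 and 20.4 CPM and 87.2, 94.5 and 88.1 CPM (log2 fold change 2.23 ± 0.10, adjusted p = 9.1e-28). For SLC38A2, a sodium-coupled carrier of small neutral amino acids, the levels were 312, 319 and 251 CPM and 971, 934 and 961 CPM (log2 fold change 1.70 ± 0.07, adjusted p = 5.6e-30). The large neutral carrier SLC7A5 and its heavy chain partner SLC3A2 rose together, with 1.10 ± 0.05 and 0.88 ± 0.05. SLC1A5, SLC7A1 and SLC38A1 rose between 0.72 and 0.85. Exceptions were SLC43A2, a facilitated carrier of large neutral amino acids, and SLC38A5, which fell with −0.60 ± 0.11 and −0.25 ± 0.05 (adjusted p = 1e-05 and 0.00029), whereas SLC43A1 rose with 0.47 ± 0.08.

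Cytosolic tRNA synthetases, which charge tRNAs with amino acids, split by identity. Of 20 tested, 12 rose, 4 fell and 4 did not pass. GARS1 (glycine) went from 612, 607 and 585 CPM to 1204, 1186 and 1148 CPM (log2 fold change 0.97 ± 0.04, adjusted p = 1.3e-27), and CARS1 (cysteine), AARS1 (alanine) and SARS1 (serine) rose with 1.01 ± 0.06, 0.87 ± 0.05 and 0.77 ± 0.05. TARS1, MARS1, NARS1, YARS1 and WARS1 rose less, between 0.45 and 0.67. At the other end RARS1 (arginine), KARS1 (lysine) and FARSA (a phenylalanine subunit) fell with −0.32 ± 0.07, −0.20 ± 0.05 and −0.22 ± 0.06 (adjusted p = 0.00042, 0.0011 and 0.0043). For QARS1, VARS1 and HARS1 the log2 fold changes lay between −0.07 and 0.02 and did not pass. GARS1 and KARS1 each serve both compartments from 1 gene. Synthetases dedicated to mitochondria rose in 0 of 17, and 3 fell, a count that was 1 without replicate 1 of DMSO or any single GSK-J4 library. MARS2 held its call (log2 fold change −0.38 ± 0.09, adjusted p = 0.00049).

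Effectors and secreted factors of stress rose in 14 of 16 tested, with a median log2 fold change of 1.19. The list was drawn up with earlier results of these data known, so this share is a description and not a test. CHAC1 (ENSG00000128965), which degrades glutathione, stood at 54.2, 48.03 and 18.99 CPM in DMSO and 345, 385 and 379 CPM in GSK-J4 (log2 fold change 3.19 ± 0.14, adjusted p = 4.6e-28, or 2.85 without replicate 3 of DMSO). Its DMSO libraries were uneven, with replicate 3 lowest, and every GSK-J4 library was above all of them. A pair of brakes on mTORC1 both rose. SESN2, the leucine sensor, went from 47.5, 51.8 and 32.9 CPM to 267, 289.8 and 297 CPM, and DDIT4 (REDD1) from 96.9, 106 and 51.1 CPM to 420.3, 436 and 458 CPM (log2 fold changes 2.69 ± 0.09 and 2.37 ± 0.12, or 2.52 and 2.11 without replicate 3 of DMSO). DEPTOR, a further inhibitor of mTOR, rose less (0.44 ± 0.07, adjusted p = 8.8e-07). Among secreted products, INHBE, an activin subunit, went from 9.41, 7.75 and 4.11 CPM to 65.5, 65.1 and 69.9 CPM (log2 fold change 3.23 ± 0.15, adjusted p = 7.4e-27, or 2.95 without replicate 3 of DMSO). VEGFA, the angiogenic factor, stood at 145, 146 and 124 CPM and 416, 428 and 426 CPM, and STC2, a stanniocalcin, at 100.3, 97.96 and 77.9 CPM and 372, 391 and 384 CPM. TSC22D3 (GILZ), a glucocorticoid-induced leucine zipper protein, rose from 23.96, 24.3 and 26.9 CPM to 136, 114 and 119 CPM (log2 fold change 2.30 ± 0.09, adjusted p = 4.3e-32). GADD45B, a growth arrest gene, fell with −0.35 ± 0.11, a call lost without replicate 3 of DMSO or of GSK-J4. GDF15, FGF21 and 5 other entries of the list were not tested.

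**Figure D2:**
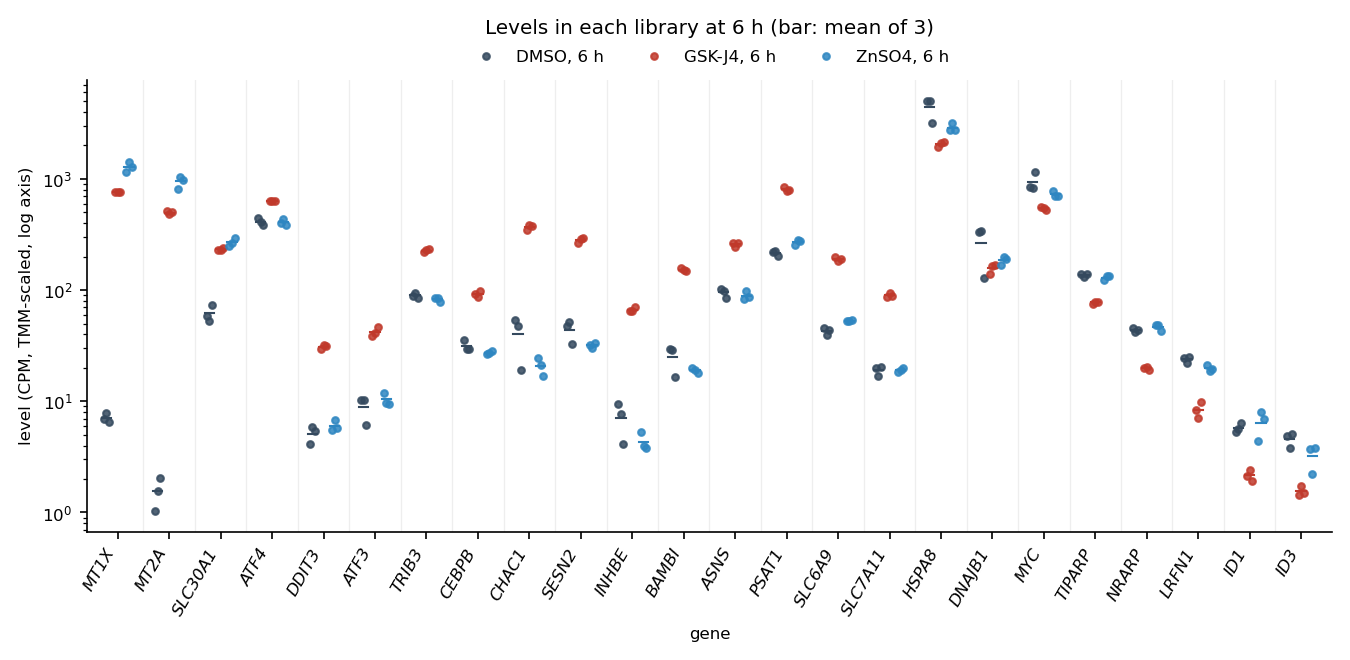
Each point is a library at 6 h (3 per treatment) and each bar the mean of a group, in TMM-scaled CPM on a log axis; levels of different genes are not comparable, since longer transcripts give more reads. For CHAC1, SESN2 and SLC7A11 all 3 GSK-J4 libraries lie above every DMSO and ZnSO4 library, while MT1X, MT2A and SLC30A1 lie above DMSO with both compounds.

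Further large rises fell outside these lists. GRB10, an adaptor that restrains insulin receptor signalling, stood at 1.47, 0.861 and 3.17 CPM and 16.5, 18.6 and 16.7 CPM (log2 fold change 3.21 ± 0.25, adjusted p = 8.4e-17, or 3.84 without replicate 3 of DMSO). FUT1, a fucosyltransferase that makes the H antigen, went from 6.76, 6.03 and 4.59 CPM to 36.4, 38.4 and 38.8 CPM (log2 fold change 2.70 ± 0.16). KIF21B, a kinesin motor, went from 99.4, 96.6 and 87.7 CPM to 302, 324 and 323 CPM (log2 fold change 1.74 ± 0.07, adjusted p = 6e-29). BAMBI, a decoy receptor for TGF-beta and BMP ligands, stood at 29.6, 28.8 and 16.6 CPM and 159, 152 and 149 CPM (log2 fold change 2.62 ± 0.10, adjusted p = 5.6e-32, or 2.39 without replicate 3 of DMSO). It belongs to a list of TGF-beta and BMP response genes, of which 4 of 14 rose and 5 fell. The rises numbered 1 without replicate 3 of DMSO or 1 of GSK-J4 and 2 without replicate 1 of DMSO or 2 or 3 of GSK-J4, and the falls 3 without replicate 1 of GSK-J4. The other members called higher were SMAD9, SKIL and TGIF1, all encoding nuclear factors of the pathway, with 1.12 ± 0.42, 0.28 ± 0.09 and 0.53 ± 0.18 (adjusted p = 0.049, 0.014 and 0.03). Each of these 3 calls was lost without replicate 3 of DMSO or replicate 1 of GSK-J4, and that of SMAD9 without any single library. A pair of BMP pathway targets fell: ID1 from 5.29, 5.68 and 6.33 CPM to 2.15, 2.41 and 1.91 CPM and ID3 from 4.85, 3.79 and 5.06 CPM to 1.43, 1.72 and 1.48 CPM (log2 fold changes −1.40 ± 0.27 and −1.56 ± 0.32, adjusted p = 5.1e-05 and 0.00015). Both encode proteins that block helix-loop-helix factors, and the groups did not overlap in either. TGFB1, the ligand, fell by 0.41 (adjusted p = 2.8e-05).

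**Figure D3:**
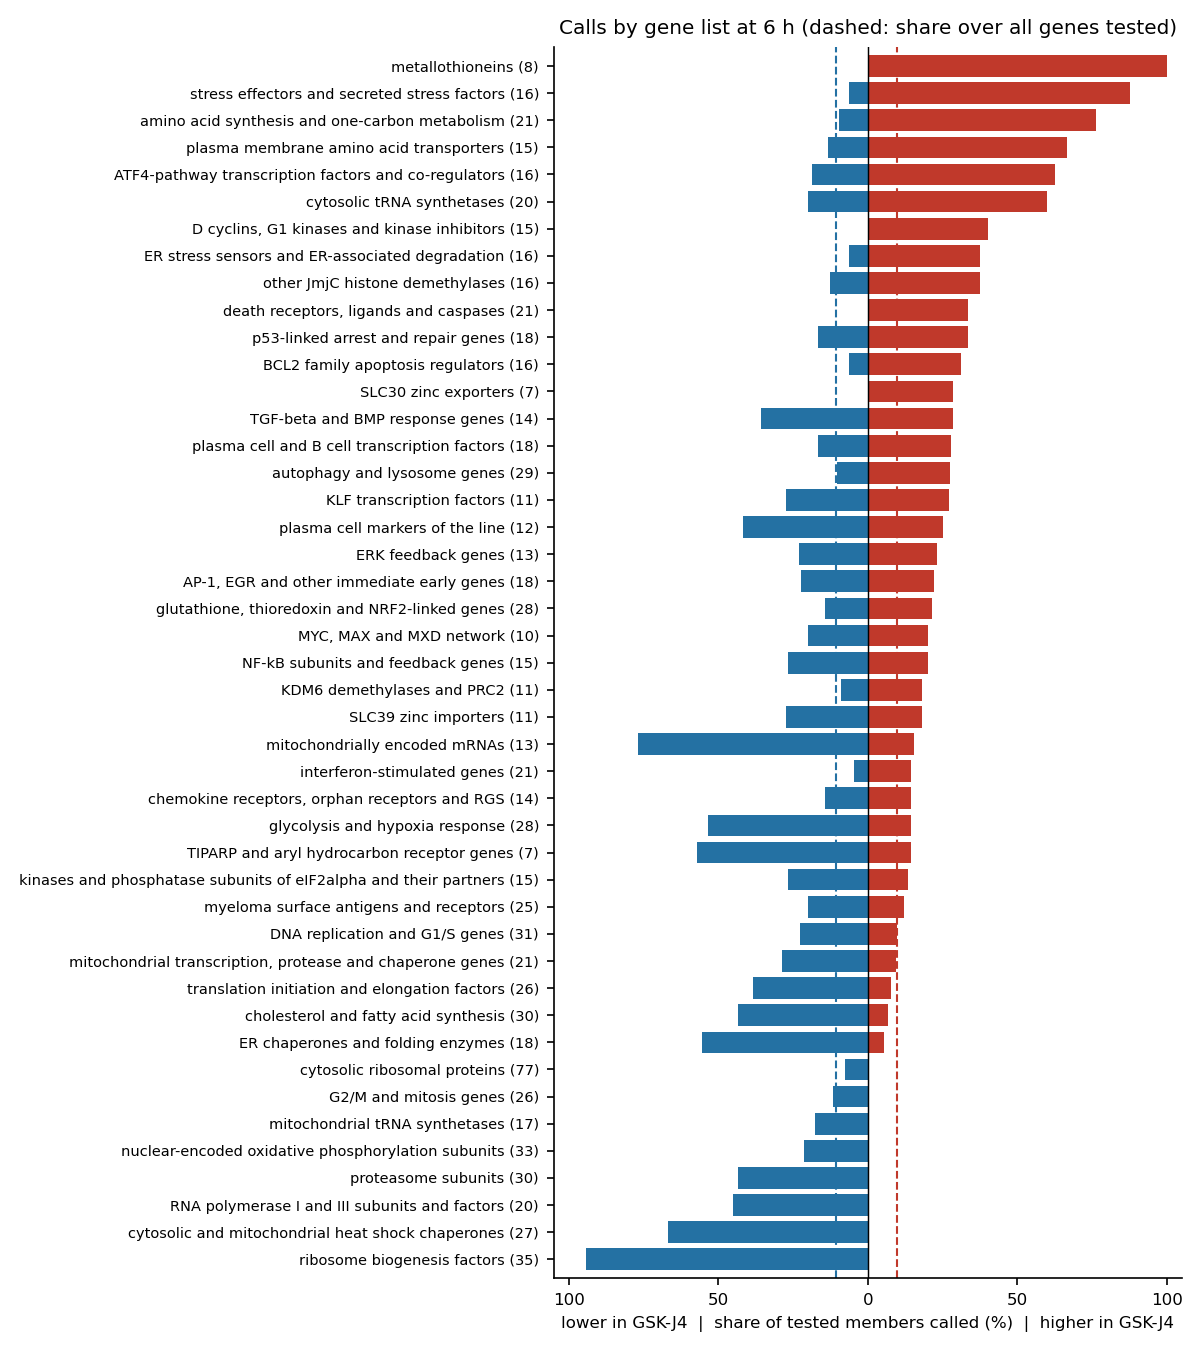
For each gene list the red bar gives the share of tested members called higher with GSK-J4 and the blue bar the share called lower, in percent, with the number of members tested in brackets; dashed lines mark 9.83% and 10.5%, the shares over all genes. Metallothioneins and the amino acid and stress lists extend to the right, and ribosome biogenesis, mitochondrially encoded mRNAs and heat shock chaperones to the left.

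Genes of the endoplasmic reticulum divided in part by role. Chaperones and folding enzymes, which the ATF6 and XBP1 branches of the unfolded protein response raise, fell in 10 of 18 and rose in 1, though the falls numbered 6 without replicate 3 of DMSO, without replicate 2 of GSK-J4, or with library totals as the scale. HSPA5 (BiP), the main chaperone of the lumen, went from 1666, 1729 and 1869 CPM in DMSO to 1347, 1366 and 1419 CPM in GSK-J4 (log2 fold change −0.35 ± 0.04, adjusted p = 5.4e-09). CALR and MANF fell with −0.26 ± 0.04 and −0.35 ± 0.06. DNAJB9, a co-chaperone of BiP, was the member that rose (0.45 ± 0.09, adjusted p = 6.1e-05). Of 16 sensors and degradation factors, 6 were higher, 1 was lower and 9 were not called, with a median log2 fold change of 0.10. The member called lower was DERL3, a degradation factor. Falls numbered 0 without replicate 3 of DMSO, without replicate 2 or 3 of GSK-J4, or with library totals. HERPUD1, a degradation factor, stood at 282, 266 and 271 CPM and 666, 666 and 649 CPM (log2 fold change 1.27 ± 0.05, adjusted p = 5.4e-30). ERN1 (IRE1), the kinase that splices XBP1 mRNA, stood at 53.5, 48.5 and 56.5 CPM and 148, 159 and 139.8 CPM (log2 fold change 1.49 ± 0.08, adjusted p = 2.2e-24). EDEM1, CREB3L2, XBP1 and SEL1L rose with 0.95 ± 0.08, 0.75 ± 0.09, 0.47 ± 0.06 and 0.43 ± 0.05.

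Cytosolic and mitochondrial heat shock chaperones fell in 18 of 27 and rose in 0. HSPA8 (HSC70), the constitutive chaperone of the cytosol, stood at 4980, 5040 and 3178 CPM in DMSO and 1930, 2086 and 2132 CPM in GSK-J4 (log2 fold change −1.10 ± 0.09, adjusted p = 2e-15, or −1.29 without replicate 3 of DMSO). Its processed pseudogene HSPA8P8 fell too (−1.61 ± 0.31), and how reads divide between such copies is uncertain. HSP90AB1 and HSP90AA1 fell from means of 5026 ± 95.2 and 3273 ± 389.5 CPM to 3678 ± 96.95 and 2283 ± 33.5 CPM (SD, n = 3). DNAJB1, an HSP40 induced by heat shock, was uneven in DMSO (335, 340.5 and 129 CPM) and stood at 140.1, 163 and 168 CPM in GSK-J4, so that its groups overlapped through replicate 3 of DMSO. Its log2 fold change was −0.78 ± 0.17 (adjusted p = 0.00029), or −1.11 without that library. The co-chaperones DNAJA1, AHSA1 and HSPH1 fell with −0.54 ± 0.06, −0.51 ± 0.06 and −0.56 ± 0.08, and the mitochondrial pair HSPD1 and HSPE1 with −0.38 ± 0.05 and −0.37 ± 0.06. HSF1, the factor that drives heat shock genes, had a log2 fold change of 0.01 (adjusted p = 0.92). HSPA1A and HSPA1B did not pass the filter.

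Antioxidant genes were mixed, with 6 of 28 higher and 4 lower. HMOX1, which degrades haem, went from 81.6, 75.8 and 76.6 CPM to 114, 154 and 142 CPM (log2 fold change 0.80 ± 0.13, adjusted p = 1.5e-06). FTH1, the heavy chain of ferritin, rose with 0.77 ± 0.07, and GCLM, the regulatory subunit of glutathione synthesis, with 0.29 ± 0.07. NFE2L1, a factor known for activating proteasome genes, went from 223, 212 and 201 CPM to 424, 421 and 415 CPM (log2 fold change 0.99 ± 0.06, adjusted p = 1.3e-22). Proteasome subunits themselves rose in 0 of 30. They fell in 13, or in 8 without replicate 3 of DMSO, each by no more than 0.40 on the log2 scale. PRDX1 and TKT fell with −0.34 ± 0.05 and −0.33 ± 0.05, and NQO1, a standard target of NRF2, had 0.04 (adjusted p = 0.8).

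MYC and the machinery of ribosome production were lower. MYC (ENSG00000136997) stood at 849, 834 and 1159 CPM in DMSO and 560.5, 545 and 526 CPM in GSK-J4 (log2 fold change −0.80 ± 0.09, adjusted p = 1.3e-10, or −0.63 without replicate 3 of DMSO). MXD1 and MXI1, which compete with MYC for its partner MAX, rose with 1.07 ± 0.10 and 0.47 ± 0.07 (adjusted p = 4.4e-13 and 1.1e-06), and MAX had −0.03 (adjusted p = 0.82). Ribosome biogenesis factors fell in 33 of 35 and rose in 0, with a median log2 fold change of −0.35. The steepest by p was RRS1, a factor of the large subunit, from 149, 146 and 158 CPM to 95.5, 95.4 and 91.9 CPM (log2 fold change −0.68 ± 0.07, adjusted p = 2.1e-12). NOP16 fell by the same amount (−0.68 ± 0.08), and the nucleolar proteins NPM1 and NOP56 fell with −0.36 ± 0.05 and −0.35 ± 0.05. DDX18 did not pass, and RRP12 passed only without replicate 1 of DMSO. Of RNA polymerase I and III genes 9 of 20 fell, POLR1G with −0.82 ± 0.11 and POLR1C with −0.54 ± 0.07 (adjusted p = 1.2e-08 and 4.7e-09). The E-box CACGTG, the letters MYC is known to bind, was in 3 of 29 ribosome biogenesis promoters (10.3%) and 3 of 15 of the RNA polymerase list (20%), against 9% of all 9981, 12.2% of genes called lower and 8.23% of those called higher.

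Ribosomal protein genes differed from their assembly factors in size. Their median log2 fold change was −0.09 over 77 genes, 6 fell and 0 rose, and the falls numbered 0 without replicate 3 of DMSO, 1 without replicate 2 or 3 of GSK-J4 or with library totals, and 20 with only the 2 groups compared in the fit. Translation factors fell in 10 of 26 and rose in 2. EIF4G1, the scaffold of cap binding, fell with −0.38 ± 0.05 and EIF3B with −0.33 ± 0.04 (adjusted p = 1.1e-08 and 3.3e-08). EIF4EBP1, an inhibitor of cap binding and a known ATF4 target, went from 163, 156 and 163 CPM to 243, 242 and 244 CPM (log2 fold change 0.60 ± 0.06, adjusted p = 3.6e-12), and EIF1 rose with 0.50 ± 0.05.

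Among sterol and sugar metabolism genes more members fell than rose. Cholesterol and fatty acid synthesis genes fell in 13 of 30 and rose in 2, and 8 fell without replicate 3 of GSK-J4. SQLE, which makes squalene epoxide, went from 207, 208 and 237 CPM to 161, 161 and 158 CPM (log2 fold change −0.44 ± 0.06, adjusted p = 3.2e-08), and FASN, the fatty acid synthase, fell with −0.41 ± 0.07. The members that rose were SREBF1 and SREBF2, the factors that drive these genes (0.55 ± 0.09 and 0.29 ± 0.06). Genes of glycolysis and the hypoxia response fell in 15 of 28 and rose in 4, or in 2 without replicate 2 of DMSO. LDHA went from 1190, 1221 and 1349 CPM to 1007, 968 and 946 CPM (log2 fold change −0.36 ± 0.05, adjusted p = 1.2e-08). PDK1, a kinase that inhibits pyruvate dehydrogenase, rose with 0.41 ± 0.08, and BNIP3L, a mitophagy receptor, with 0.44 ± 0.09.

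Mitochondrially encoded RNAs moved in both directions. Messenger RNAs fell in 10 of 13 and rose in 2, while both ribosomal RNAs rose and tRNAs rose in 5 of 14 and fell in 2. MT-CO3, of cytochrome c oxidase, stood at 2879, 2895 and 2774 CPM in DMSO and 1549, 1465 and 1416 CPM in GSK-J4 (log2 fold change −0.95 ± 0.06, adjusted p = 1.9e-22). MT-ATP6 and MT-ND2 fell with −0.77 ± 0.05 and −0.75 ± 0.06, and MT-ND3 with −0.86 ± 0.08. Falls were smaller for MT-CO1 (−0.36 ± 0.05) and MT-ND4 (−0.21 ± 0.06, lost without replicate 2 of DMSO or 3 of GSK-J4), and MT-ND1 did not pass (−0.07 ± 0.06, adjusted p = 0.42). MT-ND6, the single mRNA made from the light strand, rose from 490, 406 and 457 CPM to 639.9, 717 and 668 CPM (log2 fold change 0.58 ± 0.06, adjusted p = 1.5e-11), and so did MT-ND5, whose gene lies next to it on the other strand (0.39 ± 0.06). MT-RNR2, the large ribosomal RNA, went from 2233, 2255 and 2346 CPM to 4203, 4302 and 4237 CPM (log2 fold change 0.90 ± 0.06, adjusted p = 2.8e-19). MT-RNR1 rose with 0.97 ± 0.15, and the tRNA genes MT-TP and MT-TI with 0.82 ± 0.13 and 2.41 ± 0.37, while MT-TW fell with −1.37 ± 0.41, a call lost without replicate 2 of DMSO or 1 or 3 of GSK-J4. Few reads underlie MT-TI (16 counts over the DMSO group and 80 over the GSK-J4 group) and MT-TW (45 and 16). As background, these transcripts are cut from long shared precursors. Strand is not known, so reads of genes on opposite strands cannot be told apart. All mitochondrially encoded genes together took 3.077 ± 0.071% of counts in GSK-J4, 3.518 ± 0.041% in DMSO and 3.791 ± 0.076% in ZnSO4 (SD, n = 3). Nuclear genes of oxidative phosphorylation rose in 0 of 33 and fell in 7, a count of 3 without replicate 2 of DMSO or of GSK-J4 and 4 without replicate 1 of DMSO. ATP5F1A, of the ATP synthase, was among them with −0.26 ± 0.04 (adjusted p = 6.9e-07).

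**Figure D4:**
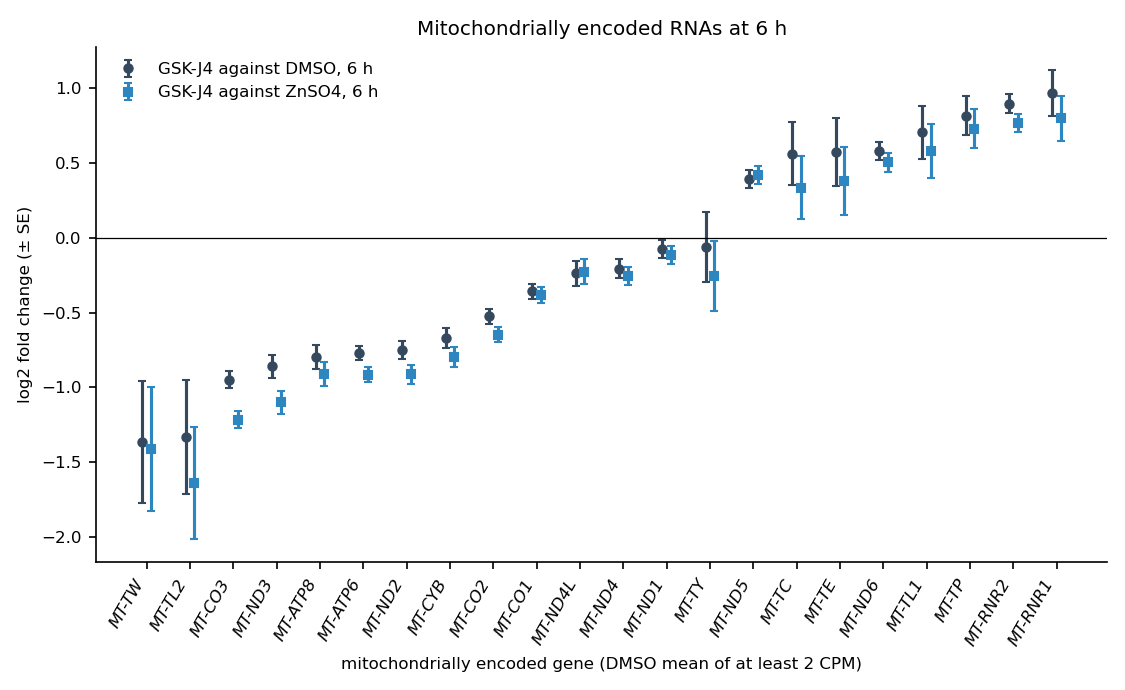
Log2 fold changes (± SE, 3 libraries per group) of mitochondrially encoded genes with a DMSO mean of at least 2 CPM are ordered by their change against DMSO, with the change against ZnSO4 as squares. MT-CO3 is at −0.95, most mRNAs lie below 0, and MT-ND5, MT-ND6 and the ribosomal RNAs lie above 0 in both comparisons.

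Some regulators of apoptosis changed. Of 16 BCL2 family genes 5 rose and 1 fell. PMAIP1 (NOXA), which neutralises MCL1, went from 105, 114 and 89.1 CPM in DMSO to 219, 209 and 221 CPM (log2 fold change 1.08 ± 0.07, adjusted p = 2.6e-19). BBC3 (PUMA) stood at 6.32, 8.44 and 8.07 CPM and 20.3, 17.4 and 19.1 CPM, and HRK at 1.76, 0.689 and 2.21 CPM and 6.01, 6.72 and 5.08 CPM. All 3 are BH3-only proteins that promote death, and the groups did not overlap in any of them. BCL2, which protects cells, also rose (0.53 ± 0.06, adjusted p = 2.1e-10), and MCL1 had 0.10 (adjusted p = 0.16; it passed with library totals). BID fell with −0.45 ± 0.09. BCL2L11 (BIM) had a log2 fold change of 0.24 with a call lost without replicate 1 or 2 of either group. Death receptors, ligands and caspases rose in 7 of 21, or in 4 without replicate 3 of DMSO, and fell in 0. TNFRSF10B (DR5), the TRAIL receptor that CHOP is known to raise, went from 15.9, 18.1 and 22.1 CPM to 37.2, 39.96 and 38.6 CPM (log2 fold change 1.04 ± 0.12, adjusted p = 4.1e-10), while the receptor TNFRSF10A had −0.16 (adjusted p = 0.36).

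Inhibitors of cyclin-dependent kinases were among the 6 of 15 G1 genes that rose: CDKN1A (p21) stood at 3.97, 3.27 and 2.37 CPM and 7.01, 5.34 and 8.05 CPM, and CDKN1C (p57) at 2.35, 1.72 and 3.01 CPM and 6.44, 4.65 and 4.45 CPM (log2 fold changes 1.06 ± 0.26 and 1.15 ± 0.28, adjusted p = 0.0012 and 0.0015). CCND2, a D cyclin, rose by a small amount (0.25 ± 0.05, adjusted p = 0.00031). CCNE1, which opens S phase, fell from 37.8, 40.6 and 45.4 CPM to 29.9, 25.1 and 26.3 CPM (log2 fold change −0.60 ± 0.10, adjusted p = 5.5e-06). DNA replication genes were lower in 7 of 31 and higher in 3, and the falls numbered 4 without replicate 2 of GSK-J4 or with library totals, which gave 6 rises. Mitotic genes fell in 3 of 26, but this number was 11 without replicate 3 of DMSO, 5 without replicate 1 of GSK-J4, 1 without replicate 2 of either group and 0 without replicate 1 of DMSO. Genes linked to p53 rose in 6 of 18 and fell in 3, while MDM2, its feedback regulator, had a log2 fold change of −0.05 (adjusted p = 0.74).

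Plasma cell identity genes moved in both directions, mostly by small amounts. IRF4, on which myeloma cells depend, went from 770.3, 786 and 801 CPM in DMSO to 956, 908 and 908 CPM in GSK-J4 (log2 fold change 0.23 ± 0.06, adjusted p = 0.0025). PRDM1 (BLIMP1) stood at 172, 169 and 174 CPM and 163, 163 and 163 CPM and did not pass (adjusted p = 0.45). MAF, the oncogene of a myeloma subgroup, fell with −0.41 ± 0.07 (adjusted p = 5e-06). Of 18 transcription factors of B and plasma cells 5 rose and 3 fell. Among surface genes IL6ST (gp130), the signalling chain of the IL-6 receptor, rose from 214, 228 and 162 CPM to 309, 292 and 295 CPM (log2 fold change 0.57 ± 0.07, adjusted p = 2.8e-09), CD28 rose with 0.60 ± 0.12 and CD79B fell with −0.65 ± 0.14. SDC1 fell by 0.23 (adjusted p = 0.00056). TNFRSF17 (BCMA) was called lower (−0.23 ± 0.08, adjusted p = 0.037), a call lost without replicate 3 of DMSO or any single GSK-J4 library, and CD38 did not pass (adjusted p = 0.19).

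Signalling genes gave small and mixed counts. Immediate early genes rose in 4 of 18 and fell in 4, and the rises numbered 1 without replicate 1 of DMSO and 2 without replicate 1 of GSK-J4. JUNB fell from 72.2, 67.1 and 82.3 CPM to 51.1, 48.6 and 54.9 CPM (log2 fold change −0.53 ± 0.08, adjusted p = 6.3e-07). Of ERK feedback genes DUSP2 fell and DUSP10 rose (−0.89 ± 0.15 and 0.94 ± 0.13). Among NF-kB genes NFKBIA and NFKBIE, which hold the factor in the cytosol, fell with −0.30 ± 0.07 and −0.53 ± 0.10, and NFKBIZ rose with 0.66 ± 0.12. TIPARP, a target of the aryl hydrocarbon receptor, went from 140.1, 131 and 138 CPM to 75.6, 78.7 and 77.96 CPM (log2 fold change −0.82 ± 0.07, adjusted p = 2.8e-16). AHRR, the repressor of that receptor, fell with −0.69 ± 0.12, and CYP1A1, its classic target, from 1.91, 1.38 and 1.42 CPM to 0.143, 0.172 and 0.212 CPM, below the floor of 3 counts in each library (adjusted p = 0.00093). The receptor gene AHR did not pass (adjusted p = 0.17).

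Genes with large falls and reads in every library had varied functions. LRFN1, a synaptic adhesion molecule, stood at 24.7, 22.2 and 25.2 CPM and 8.30, 7.06 and 9.96 CPM (log2 fold change −1.52 ± 0.16, adjusted p = 1.1e-11). SHROOM2, a regulator of the actin cytoskeleton, went from 7.35, 7.40 and 7.75 CPM to 2.43, 2.58 and 2.54 CPM, and RGS20, which shuts off G proteins, from 32.6, 32.5 and 35.1 CPM to 13.9, 15.7 and 14.6 CPM. NRARP, a feedback inhibitor of Notch, stood at 45.6, 41.8 and 44.1 CPM and 20.03, 20.1 and 19.3 CPM (log2 fold change −1.14 ± 0.10, adjusted p = 7.5e-14). In each of these the groups were fully apart. Falls with small p included BHLHE41, a repressor of the circadian clock (−1.03 ± 0.08), RBM12, an RNA-binding protein (−0.85 ± 0.06), SLC16A1, a lactate carrier (−0.55 ± 0.05), and AMD1 of polyamine synthesis (−0.58 ± 0.05).

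Between GSK-J4 and ZnSO4 at the same time 2661 genes were called (18.4%), 1233 higher (8.53%) and 1428 lower (9.88%). This comparison and the one against DMSO share the GSK-J4 libraries. All 8 metallothioneins tested were lower in GSK-J4 than in ZnSO4, where MT1X stood at 1150, 1419 and 1291 CPM and MT2A at 819.6, 1050 and 979 CPM (log2 differences of −0.76 ± 0.08 and −0.93 ± 0.09). For MT1E the difference was larger (−2.12 ± 0.12, adjusted p = 8e-23). SLC30A1 stood at 249, 265 and 293 CPM in ZnSO4 (difference −0.21 ± 0.07, adjusted p = 0.018). HMOX1 reached 928, 1334 and 1242 CPM with ZnSO4, far above GSK-J4 (difference −3.10 ± 0.11, adjusted p = 2.3e-32), and of the antioxidant list 17 of 28 were lower in GSK-J4. Of heat shock chaperones 18 of 27 were lower in GSK-J4 than in ZnSO4 and 2 higher. The small heat shock gene HSPB1 stood at 44.95, 52.4 and 58.7 CPM in ZnSO4 against 8.30, 8.09 and 11.2 CPM in GSK-J4, and CLU, an extracellular chaperone, at 23.3, 34.5 and 27.5 CPM against 8.87, 4.82 and 6.99 CPM.

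The amino acid and stress genes set the compounds apart in the other direction. Of amino acid synthesis genes 16 of 21 were higher in GSK-J4 than in ZnSO4, of transporters 10 of 15, of cytosolic tRNA synthetases 13 of 20 and of stress effectors 11 of 16. CHAC1 stood at 24.3, 21.2 and 16.7 CPM with ZnSO4 (difference 4.16 ± 0.16, adjusted p = 5.7e-31), below DMSO replicates 1 and 2. INHBE, GRB10, FUT1, SESN2 and BAMBI followed with differences of 3.93 ± 0.17, 3.48 ± 0.27, 3.31 ± 0.18, 3.15 ± 0.10 and 3.02 ± 0.11. For DDIT3 the ZnSO4 libraries held 5.46, 6.86 and 5.74 CPM, for ATF3 11.99, 9.73 and 9.51 CPM and for TRIB3 85.5, 84.7 and 78.2 CPM. PPP1R15A was intermediate with ZnSO4 (35.1, 51.1 and 59.01 CPM), and its difference from GSK-J4 did not pass (0.31 ± 0.12, adjusted p = 0.074). MYC stood at 781, 704 and 701 CPM with ZnSO4 and was lower in GSK-J4 (difference −0.42 ± 0.09, adjusted p = 0.00032). Ribosome biogenesis factors were lower in GSK-J4 than in ZnSO4 in 12 of 35 and higher in 2. They do not simply set the compounds apart. In ZnSO4 against DMSO at 6 h, 24 of the 35 were lower and 0 higher, with a median log2 fold change of −0.23.

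The effect at 6 h was also set against that at 3 h, each relative to the DMSO libraries of its own time, by a test of the difference between the effects. It called 530 genes (3.67%), 253 with a higher value at 6 h (1.75%) and 277 with a lower one (1.92%). Without replicate 3 of DMSO at 6 h it called 402, 209 higher and 193 lower. The counts by list and the values of single genes below were not repeated without that library. Of amino acid synthesis genes 13 of 21 had a higher effect at 6 h, and 9 of 15 transporters, 10 of 20 cytosolic tRNA synthetases and 11 of 16 stress effectors did too. PSAT1 had log2 fold changes of 0.64 at 3 h and 1.92 at 6 h (adjusted p of the difference 4.1e-20), and SLC6A9 0.82 and 2.15 (5.5e-14). GRB10 went from 0.62 to 3.21 (1.6e-05). DDIT3 and ATF3 had effects of 2.08 and 2.03 at 3 h, and the difference from 6 h did not pass (adjusted p = 0.24 and 0.76). The difference was called in 0 of 8 metallothioneins, while SLC30A1 had a lower effect at 6 h (1.91) than at 3 h (2.33, adjusted p = 0.013). Ribosome biogenesis was the list with most members lower at 6 h than at 3 h, 19 of 35. RRS1 went from −0.26 to −0.68 and MYC from −0.22 to −0.80 (adjusted p = 0.0026 and 0.0018).

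By 24 h some effects were smaller and others were not called as different. The difference between the effects at 24 and 6 h was called in 832 genes (5.75%), 393 with a higher value at 24 h (2.72%) and 439 with a lower one (3.04%). It uses the same 6 h libraries as the comparison with 3 h, and without replicate 3 of DMSO at 6 h it called 748 genes. Its counts by list and values of single genes were likewise not repeated without that library. ATF3 had a log2 fold change of 2.22 at 6 h and −0.25 at 24 h (adjusted p of the difference 2.3e-18), and SLC38A2 1.70 and −0.03 (1.1e-21). PMAIP1 went from 1.08 to −0.28 and BAMBI from 2.62 to 0.60 (9.2e-17 and 9.2e-17). For others no difference was called. PCK2 had 1.78 and 1.57, AARS1 0.87 and 0.85, and BCAT1 1.81 and 1.79, differences that did not pass (adjusted p = 0.39, 0.94 and 0.99). MT1X had a lower effect at 24 h (4.81, adjusted p = 7.2e-10), 1 of 8 metallothioneins with a called difference. Among ribosome biogenesis factors the effect was lower at 24 h in 8 of 35 and higher in 1, RRS1, whose 24 h value was −0.04. HSPA5 moved from −0.35 to 0.02 (adjusted p = 2.7e-05).

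**Figure D5:**
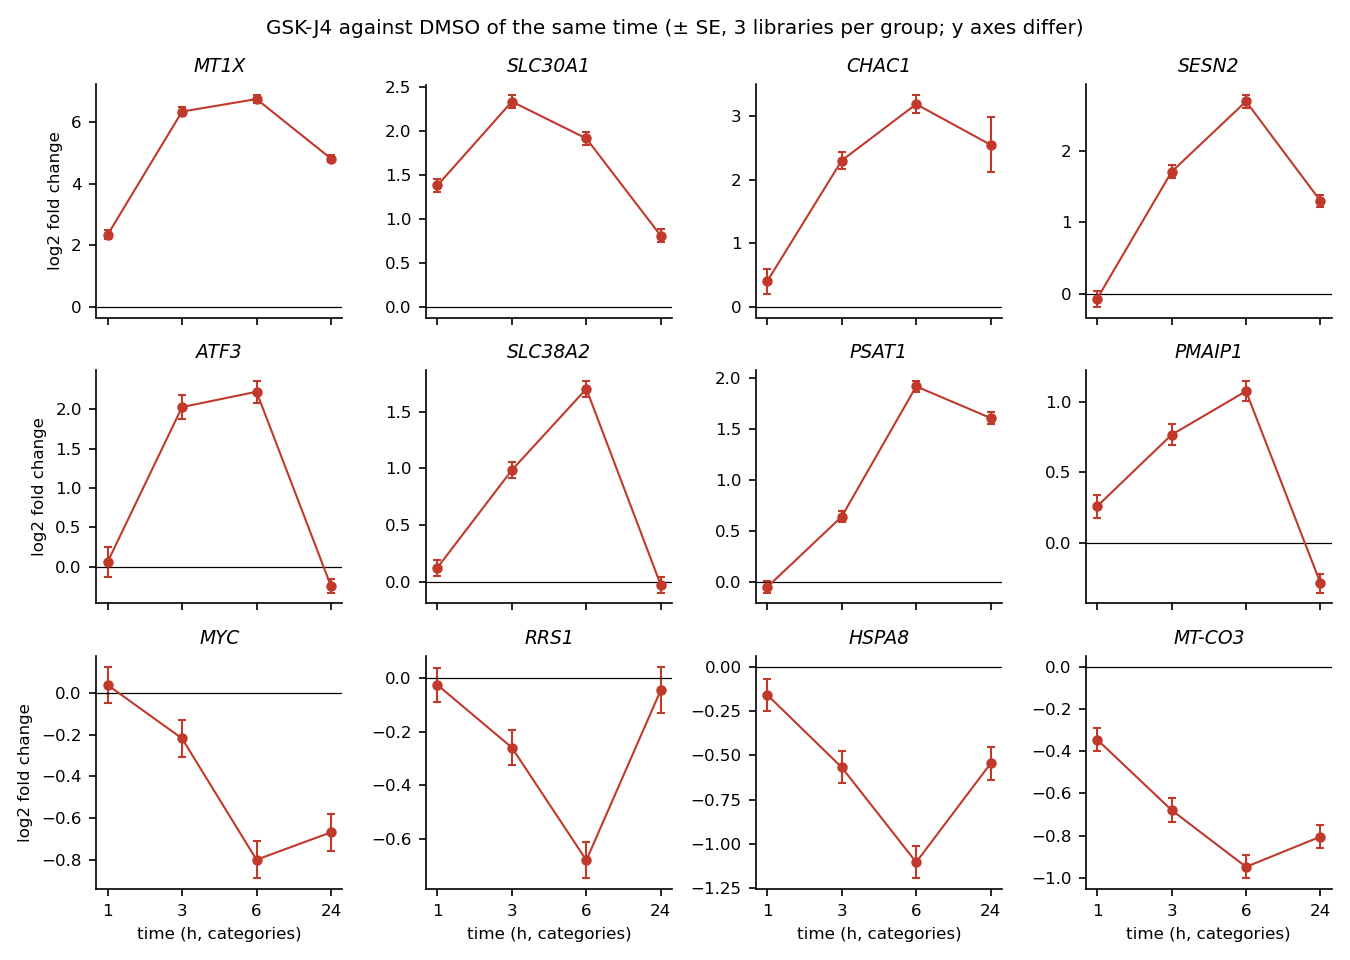
Log2 fold changes (± SE, 3 libraries per group) of GSK-J4 against DMSO of the same time are shown at 1, 3, 6 and 24 h for 12 genes, with hours as evenly spaced categories and a separate y axis for each gene. ATF3, SLC38A2 and PMAIP1 lie above 0 at 6 h and below 0 at 24 h, while PSAT1 is at 1.92 and 1.61 and MT-CO3 at −0.95 and −0.80 at these times.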

How the data were processed

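The authors deposited raw counts of reads per gene for 39 libraries of JJN3 cells. Reads were aligned with HISAT2 2.1.0 to hg19, per the submitters' processing notes, and the sources used here do not give the counting tool, annotation or strand setting. Counts were used as deposited. Symbols came from a name table (51996 identifiers) and GENCODE 29 (342), and 5435 identifiers had none. Genes were kept by edgeR's filter with a minimum count of 10, and 43313 were left out. The fit used 1 coefficient for each of 13 groups, TMM factors and edgeR's quasi-likelihood test (edgeR 4.0.16, limma 3.58.1, R 4.3.3), with 26 residual degrees of freedom and Benjamini-Hochberg adjustment over all 14460 genes at 0.05. Log2 fold changes carry standard errors (±), and ± beside a mean is the SD. Counting intervals are exact at 95%, and they and the floor of 3 counts cover counting error only. DESeq2 1.42.0, other scales, filters and sets of libraries were tried as alternatives.

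Members and gene lists were chosen with earlier results of these data known, so list counts are descriptions. Genes named are the 15 largest and 15 most significant changes each way without overlap, up to 8 members of a list by p (every member of a list of 12 or fewer) with those called against its majority, the 6 largest each way in the other comparisons, and KDM6A, KDM6B, MYC, IRF4 and PRDM1. Chosen after their values were seen were ALDH1L2, BCAT1, CBS, DDX18, DEPTOR, DNAJB1, EIF2AK1, EIF2AK2, EIF2AK3, HARS1, HSF1, MDM2, MT-CO1, MT-ND1, MT-ND4, MT-RNR1, MT-RNR2, MT-TI, MT-TP, MT-TW, NQO1, PYCR1, QARS1, RRP12, SHMT1, SHMT2, SLC43A1, TNFRSF10A, VARS1 and WARS1.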

Additional observations from a re-analysis of the deposited data

Results flagged for a closer look

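The effect of GSK-J4 against DMSO of the same time differed between 6 h and 3 h in 530 genes, by edgeR's test of the difference between both effects. The largest differences toward a higher value at 6 h, on the log2 scale, were those of GRB10 (2.59), CCNG2 (2.23), ARHGAP9 (1.88), ANKRD22 (1.83), MOCOS (1.77) and NUAK2 (1.59). CCNG2, an atypical cyclin, had effects of −0.53 at 3 h, 1.70 at 6 h and −0.58 at 24 h, from a low level in DMSO at 6 h (0.441, 1.72 and 2.69 CPM), and its 6 h effect was 2.31 without replicate 3 of DMSO. The largest toward a lower value were those of ID3 (−1.72), HK2-DT (−1.59), SNHG21 (−1.53), TMEM132E (−1.21), GRHL1 (−1.09) and RNF165 (−1.04).

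Between 24 h and 6 h the effect differed in 832 genes by the same kind of test. It was higher at 24 h for NAALAD2 (1.81), IQANK1 (1.75), BHLHA15 (1.68), ZNF584-DT (1.53), CKMT2-AS1 (1.49) and ZNF41 (1.41). BHLHA15 (MIST1), a factor of secretory cells, had effects of −0.40 at 6 h, where it did not pass (adjusted p = 0.13), and 1.28 at 24 h. The value was lower at 24 h for ATF3 (−2.47), CCNG2 (−2.29), AMD1P3 (−2.15), MIRLET7A1HG (−2.06), BAMBI (−2.02) and MT1X (−1.93). AMD1P3 is a pseudogene whose reads may divide with AMD1, and antisense and divergent transcripts such as CKMT2-AS1 cannot be told apart from their neighbours without strand.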

How the results depend on the processing

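Among 239 of the genes named, 205 were called against DMSO, 15 of these lost the call under at least 1 of 12 alternatives that tested them, and none reversed. A gene that an alternative left untested was not counted as lost there. With DESeq2 or with only the groups compared in the fit, for example, 7 metallothioneins were tested instead of 8. Called genes against DMSO numbered 2947, with 690 at least 1.5-fold and 283 at least 2-fold changed. They ranged from 2262 (without replicate 3 of DMSO) to 2549 with 1 library left out, and were 2661 with DESeq2 and 2216 with no filter. Against ZnSO4 the range with 1 library left out was 2044 to 2312, for 6 h against 3 h 384 to 531 and for 24 h against 6 h 635 to 748. With only the groups compared in the fit, 920 genes differed between 6 h and 3 h instead of 530. Library totals moved the split of higher and lower calls to 1528 and 1181 against ZnSO4 (56.4% higher against 46.3%), 296 and 225 for 6 h against 3 h, and 550 and 292 for 24 h against 6 h (65.3% against 47.2%). Depth limits genes near the floor of 3 counts, metallothioneins in DMSO included: MT1F was at 9.43 without replicate 2 of DMSO, and MT1E at 7.37 and MT1HL1 at 8.71 without replicate 3. The cause of these shifts was not tested. No paired analysis was possible because the labels give no replicate numbers. The 24 h libraries could not be left out of the comparison that uses them.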

Other observations

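Autophagy and lysosome genes rose in 8 of 29 and fell in 3, or in 1 without replicate 3 of DMSO or replicate 2 of GSK-J4, against 9.83% higher and 10.5% lower over all genes. SQSTM1 (p62), a receptor that carries cargo to autophagosomes, went from 729.9, 733 and 721 CPM in DMSO to 931, 977 and 1008 CPM in GSK-J4 (log2 fold change 0.42 ± 0.05, edgeR adjusted p = 1.9e-09). MAP1LC3B (LC3B), which coats the autophagosome, rose with 0.58 ± 0.07, and ULK1, the kinase that starts the process, with 0.80 ± 0.12. TFEB and TFE3, factors that drive lysosome genes, rose with 0.68 ± 0.11 and 0.35 ± 0.08. The GTPase gene RRAGD fell (−0.32 ± 0.07, adjusted p = 0.00042).

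RGS16, which shuts off G protein signalling, rose from 343, 319 and 306 CPM to 738, 777 and 750.4 CPM (log2 fold change 1.23 ± 0.07, edgeR adjusted p = 3.5e-23). Its effect was 1.14 at 3 h and −0.05 at 24 h, and the difference between 24 h and 6 h passed (adjusted p = 4.4e-15). Among KLF factors 3 of 11 rose and 3 fell (27.3% each, against 9.83% higher and 10.5% lower over all genes). KLF9 (1.15 ± 0.16) and KLF16 (−0.67 ± 0.12) were the ends of the range. Interferon-stimulated genes rose in 3 of 21 (14.3%), near the 9.83% over all genes, and 17 were not called. HLA-C was the 1 member called lower, and 0 fell without replicate 3 of DMSO. STAT2, a factor of interferon signalling, went from 26.02, 25.1 and 24.8 CPM to 48.8, 42.4 and 44.9 CPM (log2 fold change 0.84 ± 0.11, adjusted p = 1.1e-08). Of mitochondrial transcription, protease and chaperone genes LONP1, a matrix protease, rose (0.35 ± 0.05) and TFB2M, a transcription factor of the organelle, fell (−0.44 ± 0.10).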
